A study of Mus musculus with 12 samples.

Results

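Grin2a, Chrm3, Adrb1, Kcnv1, Gad1, Tbr1, Unc80, Dnm3, Cntnap1 and Dock3 are 10 neuronal genes of a receptor, channel, transmitter, transcription or synapse role, out of the 757 endogenous genes counted with the nCounter Glial Profiling Panel in whole brain total RNA. They were picked by name because their counts were lower after experimental stroke. The values that picked them are the counts of operated and sham mice, so both differences from sham are given for these genes as a description, with no test. The study had 12 individual male C57BL/6 mice in 3 groups of 4: CD73ko mice after transient middle cerebral artery occlusion (tMCAO), CD73-floxed mice after tMCAO (flox tMCAO), and CD73-floxed mice after sham surgery (flox sham). The artery was closed for 50 min, and the brains were taken 3 days after surgery. CD73 is the surface enzyme that makes adenosine from extracellular AMP. Neither the ages of the mice nor the promoter or cell type behind the CD73 deletion is given in the sources used here, and CD73ko mice after sham surgery were not analysed here. Hence a change with surgery inside the CD73ko genotype could not be estimated.

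Neurons of the forebrain signal through glutamate, which opens ion channel receptors at excitatory synapses, and through GABA, which inhibits. Amine and acetylcholine receptors coupled to G proteins tune this traffic, leak and voltage-gated channels set how easily a neuron fires, and dynamins retrieve synaptic vesicle membrane after release. Closing the middle cerebral artery starves parts of striatum and cortex of blood, and neurons there are known to be more sensitive to this than most glia.

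Snap25, Syt1, Slc17a7, Gad1 and Gad2, 5 of the 6 neuron markers listed for a check, were above background in all 12 mice. Rbfox3 was not on the panel. The check cannot decide whether the 10 genes report neurons. Of the 757 endogenous genes, 712 were above background in at least 3 mice of a group, and Gad1 itself belongs to the set. A library's background limit was set 2 SD above the mean of its 8 negative probes, and all 10 genes exceeded this limit in every mouse. Total counts over 770 genes lay between 724655 and 848853 in 11 libraries and at 293589 in flox sham replicate 4, which stood apart in depth. In that library Adrb1 had the lowest raw count of the set, 53, with an exact Poisson 95% interval of 39.7 to 69.3 that covers counting error only. Nt5e, which encodes CD73, had no probe in the table, which leaves the knockout unchecked here. Values below are normalised counts, that is counts scaled by TMM factors to the mean library size. They compare mice for a gene and do not rank genes against each other, because probes differ.

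Start-site sequence was printed for 3 of the genes, to show what stands upstream of a gene with the smallest deficit in CD73ko mice (Adrb1), of a second receptor gene (Chrm3) and of a gene at nearly equal levels in both operated groups (Gad1). The windows are the 250 bases before the RefSeq gene start in mouse build GRCm38.p6, read along the gene's strand. Capitals mark matches on either strand to the CRE core TGACG, the GC box GGGCGG, the CCAAT box CCAAT or the TATA box TATAAA; no marked match overlaps another in these 3 windows.
Adrb1: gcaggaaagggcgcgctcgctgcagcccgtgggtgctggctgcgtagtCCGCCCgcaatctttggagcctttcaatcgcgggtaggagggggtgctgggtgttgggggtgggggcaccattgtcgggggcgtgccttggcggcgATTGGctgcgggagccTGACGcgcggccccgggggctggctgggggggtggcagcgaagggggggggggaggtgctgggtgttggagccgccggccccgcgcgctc
Chrm3: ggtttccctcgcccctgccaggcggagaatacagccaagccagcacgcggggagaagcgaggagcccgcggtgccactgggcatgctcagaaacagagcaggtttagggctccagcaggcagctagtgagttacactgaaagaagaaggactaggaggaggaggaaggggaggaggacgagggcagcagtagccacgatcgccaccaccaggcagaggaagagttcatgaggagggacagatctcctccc
Gad1: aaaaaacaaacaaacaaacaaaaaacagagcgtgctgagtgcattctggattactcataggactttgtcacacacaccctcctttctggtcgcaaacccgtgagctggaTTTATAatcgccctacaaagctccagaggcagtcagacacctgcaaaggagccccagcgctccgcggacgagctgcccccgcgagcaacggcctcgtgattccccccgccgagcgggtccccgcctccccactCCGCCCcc
The Adrb1 window lies at chr19:56721867-56722116 on the plus strand, the Chrm3 window at chr13:10360804-10361053 on the minus strand and the Gad1 window at chr2:70561879-70562128 on the plus strand. The Adrb1 window held the CRE core 90 to 86 bases before the start, with a CCAAT box and a GC box on the opposite strand farther upstream. Gad1 had a TATA box match 141 to 136 bases and a GC box match 8 to 3 bases before the start, both on the opposite strand. None of these letters occurred in the Chrm3 window. Of 32851 windows of this length in the table, 17.8% held the CRE core, 32.7% the GC box, 33.8% the CCAAT box and 12.4% the TATA box. Of the 10 genes, 7 had a window; among these 7, the CRE core was in 1, the GC box in 4, the CCAAT box in 3 and the TATA box in 1. These matches are descriptions of sequence, and their use in these brains was not tested.

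The glutamate receptor gene of the set was Grin2a, which encodes the GluN2A subunit of the NMDA receptor. Grin2a had 196, 188, 169 and 197 normalised counts in the CD73ko tMCAO mice, 158, 169, 161 and 148 in the flox tMCAO mice, and 229.6, 241, 234 and 195 in the flox sham mice. Every flox tMCAO mouse lay below every sham mouse, whereas 2 CD73ko mice slightly exceeded the lowest sham, which was the shallow library. The means were 187 ± 13.1, 159 ± 8.48 and 225 ± 20.4 normalised counts in that order of groups (SD, n = 4 mice each). The log2 fold change against sham was -0.28 ± 0.09 in CD73ko tMCAO mice and -0.52 ± 0.09 in flox tMCAO mice (edgeR estimate ± SE), or -0.34 and -0.56 without flox sham replicate 4.

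The 2 receptor genes coupled to G proteins were Chrm3, the muscarinic acetylcholine receptor M3, and Adrb1, the beta-1 adrenergic receptor. Chrm3 had 127, 125, 126 and 118 normalised counts in the CD73ko tMCAO mice, 111, 125, 117 and 98.8 in the flox tMCAO mice, and 127, 186, 166 and 172 in the flox sham mice. The sham mice were spread widely, and flox sham replicate 1 stood within the CD73ko tMCAO values and just above the highest flox tMCAO mouse. Against sham, the log2 fold change of Chrm3 was -0.38 ± 0.12 in CD73ko tMCAO mice and -0.52 ± 0.12 in flox tMCAO mice. Adrb1 had 126, 115, 117 and 113 normalised counts in the CD73ko tMCAO mice, 94.0, 93.6, 95.0 and 86.2 in the flox tMCAO mice, and 111, 151, 125 and 134 in the flox sham mice. The flox tMCAO mice were tightly grouped below all other mice, and the CD73ko tMCAO mice lay above them and overlapped the lower shams. Adrb1 was 9.4% lower than sham in CD73ko tMCAO mice, log2 fold change -0.14 ± 0.11, and 29.0% lower in flox tMCAO mice, log2 fold change -0.49 ± 0.11. The CD73ko value was -0.22 without flox sham replicate 1 and -0.08 without flox sham replicate 2. The promoter windows printed above belong to these receptors and to Gad1.

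The channel genes were Kcnv1, which encodes a silent potassium channel subunit that modifies other voltage-gated subunits, and Unc80, a large subunit of the NALCN sodium leak channel complex. Kcnv1 had 376, 322, 286 and 277 normalised counts in the CD73ko tMCAO mice, 297, 293, 181 and 334 in the flox tMCAO mice, and 439.6, 385, 381 and 474 in the flox sham mice. Neither operated group overlapped the shams, although CD73ko tMCAO replicate 1 came within a few counts of the lowest sham and flox tMCAO replicate 3 was far below its group. The log2 fold change of Kcnv1 against sham was -0.40 ± 0.15 in CD73ko tMCAO mice and -0.59 ± 0.16 in flox tMCAO mice, and the second value was -0.43 without flox tMCAO replicate 3. Unc80 had 1112, 1059, 985 and 1008 normalised counts in the CD73ko tMCAO mice, 1021, 1145, 1137 and 1063 in the flox tMCAO mice, and 1234, 1254, 1261 and 1428 in the flox sham mice. The operated groups overlapped each other and neither overlapped the shams. For Unc80 the log2 fold change against sham was -0.31 ± 0.06 in CD73ko tMCAO mice and -0.24 ± 0.06 in flox tMCAO mice.

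Gad1, which encodes the GABA-making enzyme GAD67 of inhibitory neurons, and Tbr1, a transcription factor of excitatory cortical neurons, mark neurons of opposite transmitter type. Gad1 had 1368, 1238, 1209.8 and 1343 normalised counts in the CD73ko tMCAO mice, 1319, 1359, 1302 and 1196 in the flox tMCAO mice, and 1603, 1441, 1692 and 1532 in the flox sham mice. The operated groups were nearly superimposed, at 1289.8 ± 77.7 in CD73ko and 1294 ± 69.6 in flox mice, against 1567 ± 106 in the shams (mean ± SD, n = 4 each). The log2 fold change of Gad1 against sham was -0.28 ± 0.07 in CD73ko tMCAO mice and -0.28 ± 0.07 in flox tMCAO mice. Tbr1 had 400.2, 363, 323 and 339.9 normalised counts in the CD73ko tMCAO mice, 286, 315, 329 and 335 in the flox tMCAO mice, and 395, 429.8, 408 and 505 in the flox sham mice. CD73ko tMCAO replicate 1 overlapped the shams, and no flox tMCAO mouse did. Against sham, Tbr1 had a log2 fold change of -0.27 ± 0.09 in CD73ko tMCAO mice and -0.44 ± 0.09 in flox tMCAO mice, or -0.22 and -0.38 without flox sham replicate 4, the highest sham for this gene.

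The remaining genes act at synapses and axons: Dnm3 encodes dynamin 3, a membrane-cutting GTPase of endocytosis, Cntnap1 encodes Caspr, an axonal adhesion protein of the junctions beside the node of Ranvier, and Dock3 encodes a neuronal activator of the GTPase Rac. Dnm3 had 1583, 1484, 1525 and 1434 normalised counts in the CD73ko tMCAO mice, 1685, 1605, 1659 and 1497 in the flox tMCAO mice, and 1912, 1944, 1720.2 and 1957 in the flox sham mice. Its lowest sham stood just above its highest flox tMCAO mouse. Cntnap1 had 602, 601, 538 and 609 normalised counts in the CD73ko tMCAO mice, 646, 645, 615 and 586 in the flox tMCAO mice, and 689, 777, 687 and 859.6 in the flox sham mice. Both operated groups lay below all shams, and the shallow library was the highest sham. Dock3 had 1151, 1077, 906 and 1009 normalised counts in the CD73ko tMCAO mice, 1050.2, 1047, 1104 and 1166 in the flox tMCAO mice, and 1329.6, 1349, 1230.4 and 1229.8 in the flox sham mice. Again neither operated group reached the lowest sham. The log2 fold change against sham was -0.32 ± 0.06 in CD73ko tMCAO mice and -0.22 ± 0.06 in flox tMCAO mice for Dnm3. It was -0.35 ± 0.08 and -0.26 ± 0.08 for Cntnap1, and -0.31 ± 0.07 and -0.24 ± 0.07 for Dock3, with the CD73ko value first in each pair.

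**Figure D1:**
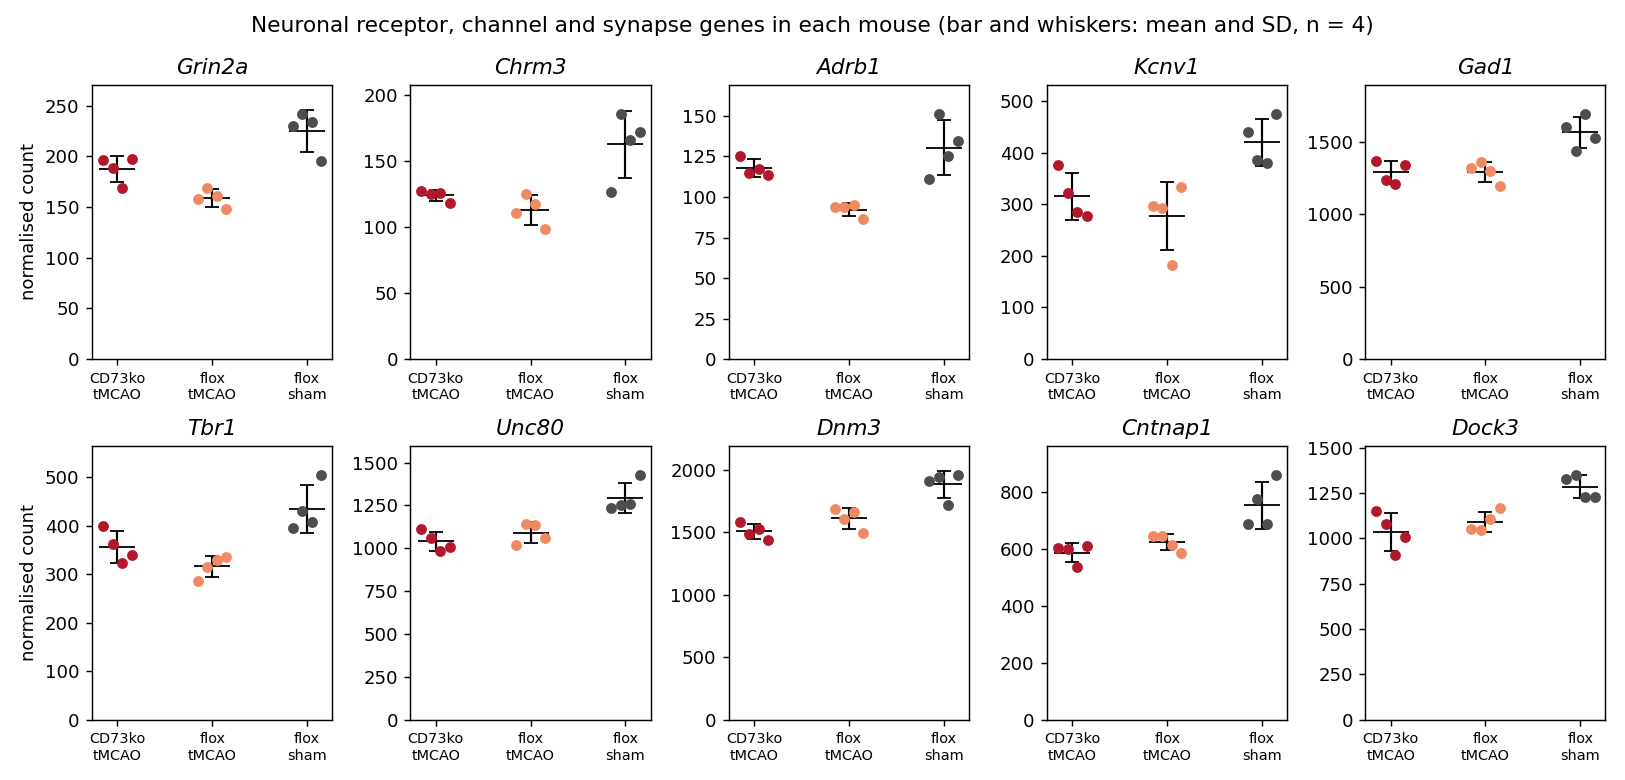
Normalised counts (y axis, from 0) of the 10 genes in each of 4 CD73ko tMCAO, 4 flox tMCAO and 4 flox sham mice, with group mean and SD. The flox tMCAO points lie below the sham points in all 10 panels, and for Adrb1 the CD73ko points lie above all flox tMCAO points.

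Against flox sham, all 10 genes were lower in flox tMCAO mice with no overlap between the groups, by 14.3% for Dnm3 to 33.7% for Kcnv1; over all 757 genes, 10.7% were lower without overlap. In CD73ko tMCAO mice the estimates of all 10 were also below sham, by 9.4% for Adrb1 to 24.3% for Kcnv1, and 6 genes did not overlap the shams (Kcnv1, Gad1, Unc80, Dnm3, Cntnap1 and Dock3), where 9.51% of all genes were lower without overlap. Estimates below 0 made up 49.3% of all genes in CD73ko tMCAO mice and 51.7% in flox tMCAO mice. Nothing is read from these counts, since the genes were chosen for this fall and both comparisons use the same sham mice. The median log2 fold change of the 10 was -0.31 in CD73ko tMCAO mice and -0.36 in flox tMCAO mice, and over all 757 genes it was 0.0013 and -0.0093. Without flox sham replicate 4 the 10 values lay between -0.38 and -0.15 in CD73ko tMCAO mice and between -0.56 and -0.19 in flox tMCAO mice. In whole brain RNA, fewer neurons and less of a transcript per neuron cannot be told apart.

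The comparison of CD73ko with flox mice after tMCAO was tested with edgeR's quasi-likelihood test adjusted over 757 genes. The flox tMCAO mice are also among those whose low counts picked the 10 genes. The estimates, intervals and unadjusted p-values of the 10 are therefore not independent of that choice, which can push the estimates upward. None of the 10 genes passed, as did none of the 757 (0%), while 47 genes (6.21%) and 2 of the 10 (Adrb1 and Grin2a) had an unadjusted p below 0.05; DESeq2 and limma also called 0 genes. Adrb1 had the largest difference of the set, a log2 fold change of 0.35 with a 95% interval of 0.11 to 0.59 (adjusted p = 0.747), and it was higher in all 4 CD73ko mice than in any flox tMCAO mouse, a separation that 2.77% of all genes showed in that direction. Grin2a followed at 0.24 with an interval of 0.04 to 0.43 (adjusted p = 0.747, edgeR), with overlapping groups. The estimates were 0.19 (interval -0.14 to 0.52) for Kcnv1, 0.17 (-0.02 to 0.37) for Tbr1 and 0.13 (-0.13 to 0.40) for Chrm3. Single mice moved these 3 values. The Kcnv1 difference was 0.03 without flox tMCAO replicate 3 and 0.07 without CD73ko tMCAO replicate 1, that of Tbr1 was 0.09 without CD73ko tMCAO replicate 1, and that of Chrm3 was 0.08 without flox tMCAO replicate 4.

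The other 5 genes had estimates below 0 with narrow intervals. The log2 fold change of CD73ko against flox tMCAO mice was -0.0049 (95% interval -0.14 to 0.13) for Gad1, -0.07 (-0.20 to 0.07) for Unc80, -0.08 (-0.23 to 0.08) for Dock3, -0.08 (-0.25 to 0.08) for Cntnap1 and -0.10 (-0.22 to 0.03) for Dnm3. Their adjusted p-values lay between 0.822 and 0.989 by edgeR's test. So the 5 genes furthest below sham in flox tMCAO mice (Kcnv1, Chrm3, Grin2a, Adrb1 and Tbr1) had positive genotype estimates, and the 5 nearest to sham had estimates below 0, as did 40.3% of all genes. The sign for Gad1 turned when 1 mouse was omitted, to 0.014 for CD73ko tMCAO replicate 2, 0.025 for CD73ko tMCAO replicate 3 and 0.0044 for flox tMCAO replicate 1. The Dock3 estimate was -0.16 without CD73ko tMCAO replicate 1 and -0.02 without CD73ko tMCAO replicate 3, and the Cntnap1 estimate was -0.04 without CD73ko tMCAO replicate 3. The flox tMCAO mice enter both of these differences with opposite sign, so this order is partly built into the comparison and was not tested.

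**Figure D2:**
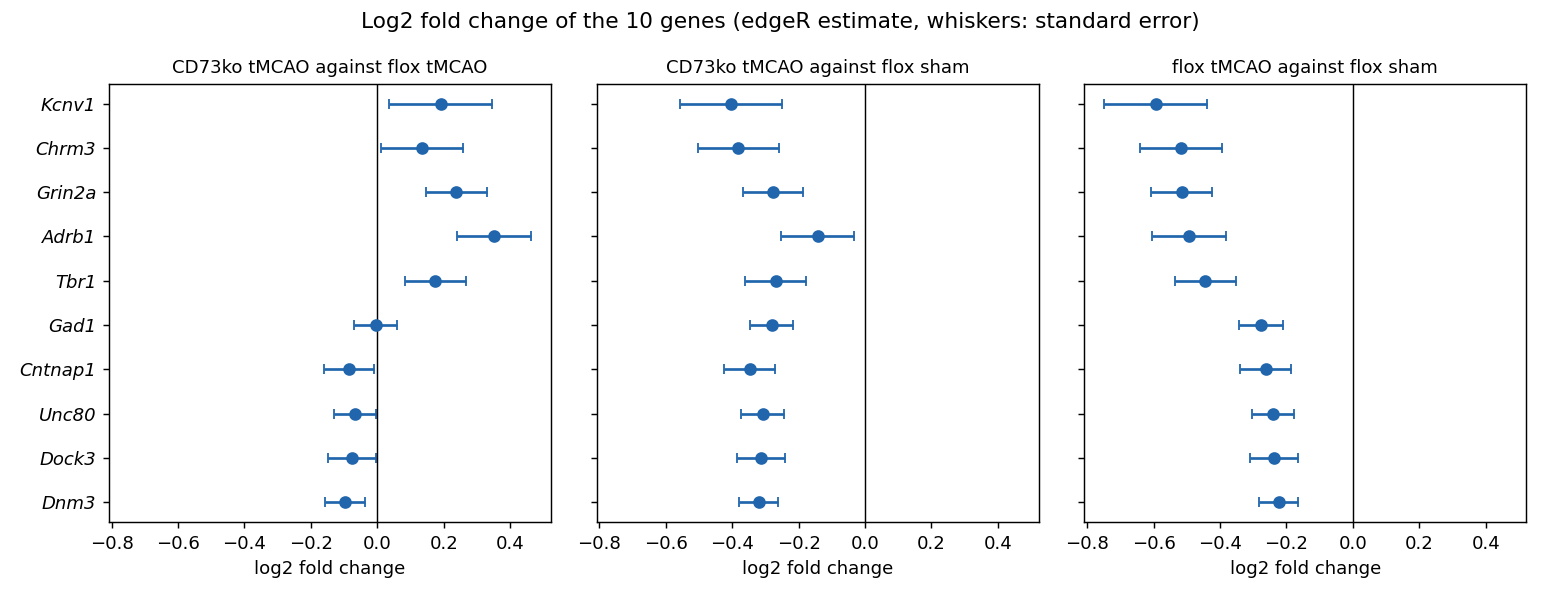
Log2 fold changes (x axis) of the 10 genes, ordered by their difference between flox tMCAO and flox sham, in the 3 comparisons; points are edgeR estimates and whiskers their standard errors. The estimates of CD73ko against flox tMCAO run from 0.35 for Adrb1 to -0.10 for Dnm3, and all estimates against sham are below 0.

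Beyond the 10 genes, 66 other neuronal genes of the panel, in 8 lists by role, were tested in flox tMCAO against flox sham mice. Of these, 17 fell and 0 rose (edgeR, adjusted over 757 genes), beside 7.93% of all genes called lower and 14.1% called higher. The median log2 fold change of the 66 was -0.17, 63 estimates were below 0, and 29 had an unadjusted p below 0.05, as did 33.8% of all genes. In CD73ko tMCAO against flox sham mice, which shares the shams, 13 of the 66 passed as lower and 0 as higher, beside 6.61% of all genes called lower and 16.1% called higher, and the median was -0.16. These counts rested on single mice. The median log2 fold change of the 66 in CD73ko tMCAO against flox sham mice lay between -0.215 and -0.138 with each mouse left out. Of the 66, 28 passed as lower when CD73ko tMCAO replicate 1 was omitted, 3 for replicate 2, 1 for replicate 3 and 6 for replicate 4 of that group, 6 for flox sham replicate 1 and 28 for flox sham replicate 4. Over all genes, the 50 lower calls became 93, 21, 15 and 28 with CD73ko tMCAO replicates 1 to 4 omitted in turn, and 99 with flox sham replicate 4 omitted. Between the genotypes after tMCAO, 0 of the 66 passed, 40 estimates were above 0 and 26 below, and the median was 0.03, against 0.03 over all genes.

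By role, 3 of 15 glutamate receptor and excitatory synapse genes fell: Gria2, an AMPA receptor subunit (-0.19 ± 0.05, log2 fold change ± SE of flox tMCAO against sham), Grin3a, an NMDA receptor subunit (-0.31 ± 0.09), and Camk4, a calcium-dependent kinase (-0.29 ± 0.09). Among GABA genes 3 of 10 fell, including Gabra4, a GABA-A receptor subunit (-0.36 ± 0.11). The neuron markers Slc17a7 (-0.145 ± 0.099, adjusted p = 0.34) and Gad2 (-0.084 ± 0.047, adjusted p = 0.243) did not pass by edgeR's test. Both striatal signalling genes fell, Drd1, the dopamine D1 receptor (-0.37 ± 0.08), and Adcy5, the main striatal adenylyl cyclase (-0.37 ± 0.05). Among ion channels 2 of 10 fell, the potassium channel gene Kcnq3 (-0.31 ± 0.06) and the sodium channel gene Scn8a (-0.24 ± 0.07). None of the 3 further amine, acetylcholine and cannabinoid receptor genes passed, with -0.15 ± 0.07 for the cannabinoid receptor gene Cnr1 (adjusted p = 0.156), -0.23 ± 0.16 for Chrm2 and -0.05 ± 0.18 for Chrnb2.

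Of 12 vesicle genes 3 fell, namely Syn1, a vesicle phosphoprotein (-0.29 ± 0.08), Snap25, a SNARE fusion protein (-0.21 ± 0.06), and Syt1, the calcium sensor of release (-0.24 ± 0.08). Of 10 axon and cytoskeleton genes 2 fell, the intermediate filament gene Ina (-0.19 ± 0.06) and the neuronal enolase gene Eno2 (-0.25 ± 0.09), while Ank2 had -0.13 ± 0.07 (adjusted p = 0.216). Of 4 transcription factor genes, Cux2 (-0.24 ± 0.07) and Rorb (-0.31 ± 0.10), both of upper and middle cortical layers, fell, and Dlx2, of interneurons, had -0.45 ± 0.20 (adjusted p = 0.131). Dlx2 was close to background, with means of 18.6 normalised counts in flox tMCAO and 25.7 in flox sham mice. The background limit was 16.6 raw counts in flox tMCAO replicate 2 and 19.4 in flox sham replicate 2. The median log2 fold changes by list ran from -0.37 for striatal signalling and -0.27 for transcription factors to -0.11 for axon and cytoskeleton genes. Levels of the striatal pair were 817 ± 43.3, 744 ± 26.3 and 960.2 ± 7.04 normalised counts for Adcy5 in CD73ko tMCAO, flox tMCAO and flox sham mice (SD, n = 4 each). For Drd1 they were 329.9 ± 21.4, 315 ± 26.0 and 409 ± 30.0.

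With flox sham replicate 1 left out, 8 genes passed, all among these 17. With flox tMCAO replicate 2 left out it was 10, all among the 17, and with flox tMCAO replicate 3 left out it was 10, of which 9 were among the 17. Of the 17, 4 passed with any 1 of the 12 mice left out, Adcy5, Kcnq3 and Drd1 among them, and the other 13 lost the call at least once. The edgeR adjusted p was 0.0565 for Scn8a without flox sham replicate 2 and 0.063 for Syn1 without flox sham replicate 1. Gria2 had 0.0551 with flox sham replicate 1 left out, or 0.0531 when flox tMCAO replicate 1 was omitted. Grin3a had 0.0681 and 0.0519 when flox sham replicate 1 or 2 was omitted. Snap25 lost the call without flox sham replicates 1 or 3 or flox tMCAO replicate 3 (edgeR adjusted p at most 0.0588), and Gabra4 without those or flox tMCAO replicate 4 (at most 0.0867). Cux2 lost it without flox sham replicate 1 or flox tMCAO replicates 1, 2 or 3 (at most 0.0662), and Rorb without flox sham replicates 2 or 4 or flox tMCAO replicates 2, 3 or 4 (at most 0.101). Camk4 (7 of 12 left-out mice), Eno2 (8), Ina (9) and Syt1 (9) lost it more often, with adjusted p up to 0.131.

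**Figure D3:**
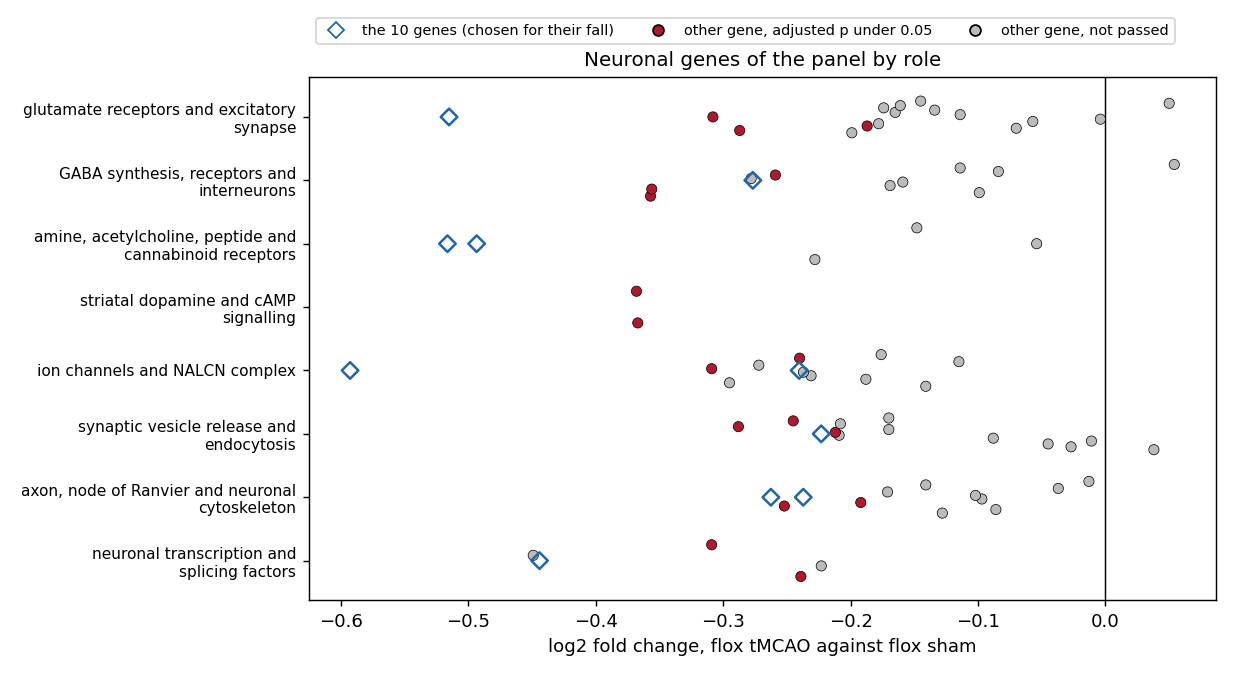
Log2 fold change of flox tMCAO against flox sham mice (x axis) for neuronal genes in 8 lists by role; diamonds are the 10 genes chosen for their fall, and filled circles are 66 other genes, red where edgeR's adjusted p passed and grey where it did not. Of the 66, 17 passed below 0 and none above it.

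Per mouse, the mean deviation of the 10 genes from the sham mean, on the log2 scale, was -0.20, -0.30, -0.39 and -0.34 in CD73ko tMCAO replicates 1 to 4, -0.38, -0.33, -0.41 and -0.41 in flox tMCAO mice, and -0.07 to 0.07 in the shams. CD73ko tMCAO replicate 1 was the operated mouse nearest to sham, with 6 of the 10 genes below every sham, where the other CD73ko mice had 8 to 9 and each flox tMCAO mouse had 10. Because the 10 genes were chosen for their fall, these means and counts follow partly from the choice. Nothing is read from them, and the same count over all genes was not made per mouse. For the 66 other neuronal genes the same mean was -0.06, -0.15, -0.18 and -0.16 in CD73ko tMCAO mice, -0.14, -0.15, -0.20 and -0.15 in flox tMCAO mice, and -0.08 to 0.05 in flox sham mice, so CD73ko tMCAO replicate 1 lay above flox sham replicate 4, the shallow library, and below the other 3 shams. The 10 genes made up 0.816% to 0.944% of the endogenous counts in CD73ko tMCAO mice, 0.857% to 0.912% in flox tMCAO mice and 1.06% to 1.15% in flox sham mice.

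Among markers of other cell types, the microglial and astrocyte sums were higher in every operated mouse than in any sham. The oligodendrocyte, endothelial and lymphocyte sums of flox tMCAO mice overlapped those of the shams. For the oligodendrocyte sum this came from flox tMCAO replicate 3, at 14936, below every sham. Every other operated mouse lay above every sham in that sum. Calls below are for flox tMCAO against flox sham mice, where 14.1% of all 757 genes were called higher and 7.93% lower. The summed level of 14 microglia and macrophage genes was 5031 to 9131 normalised counts in CD73ko tMCAO mice, 5301 to 7207 in flox tMCAO mice and 2233 to 2338 in flox sham mice, and 12 of the 14 rose in flox tMCAO against sham mice. Tmem119 (log2 fold change -0.14 ± 0.237, adjusted p = 0.727) and P2ry12 (0.264 ± 0.21, adjusted p = 0.425) did not pass by edgeR's test. The lysosomal protease gene Ctss averaged 1398 ± 367 in CD73ko tMCAO, 1190 ± 83.0 in flox tMCAO and 438 ± 24.9 normalised counts in flox sham mice (SD, n = 4 each). CD73ko tMCAO replicate 1 had the lowest of these sums among operated mice. The sum of 7 astrocyte genes was 9539.9 to 13055 in CD73ko tMCAO, 10273 to 12169 in flox tMCAO and 6362 to 6631 in flox sham mice, with 2 of 7 called higher. The 2 were Gfap (log2 fold change 2.048 ± 0.166) and Vim (1.89 ± 0.175). Slc1a3 (0.131 ± 0.09, adjusted p = 0.34) and S100b (0.256 ± 0.144, adjusted p = 0.241) did not pass by edgeR's test, so the sum does not stand for all genes of the list. Oligodendrocyte and progenitor genes summed to 22389 to 24705 in CD73ko tMCAO, 14936 to 24298 in flox tMCAO and 19120.4 to 20630.4 in flox sham mice, with 2 of 12 called higher. Endothelial genes summed to 1062 to 1416, 1227 to 1517 and 1066 to 1245 in the same groups, with 3 of 7 called higher. Lymphocyte and neutrophil genes summed to 91.9 to 142, 89.3 to 136 and 129 to 167, with 1 of 10 called lower, Cd4, and 7 of 10 at background in at least 3 of 4 flox tMCAO mice. The part of these shifts, or of depth, in the neuronal values was not tested.

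**Figure D4:**
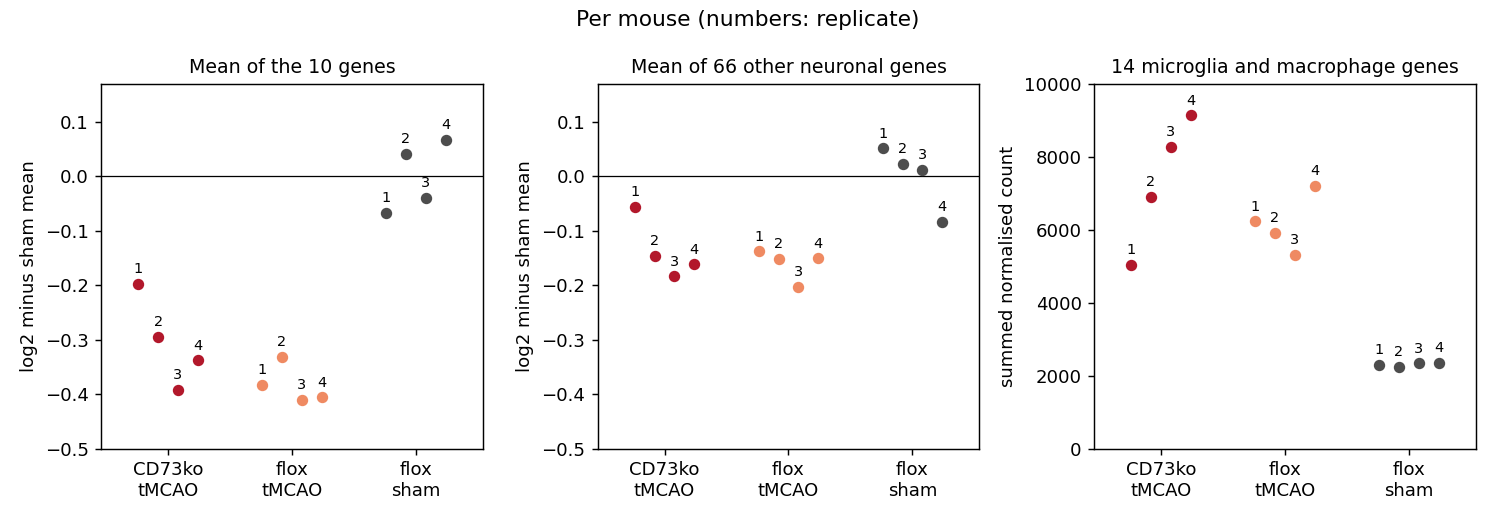
Mean log2 deviation from sham (y axes, left and middle) of the 10 genes and of 66 other neuronal genes, and the summed normalised count of 14 microglia and macrophage genes (right), per mouse with replicate numbers. Every operated mouse has a mean below all shams for the 10 genes and a microglial sum of at least 5031, against at most 2338 in shams.

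The genes whose profile over the 12 mice was most like the mean profile of the 10 were found by the smallest root mean square difference of log2 deviations from sham. They were Slc8a1 (0.0576), a sodium-calcium exchanger gene, Adcy5 (0.0831), Wasf1 (0.0852), an actin regulator, Cdk5r1 (0.0894), the p35 activator of the kinase CDK5, and Rorb (0.0901), in log2 units. Slc8a1 had 1462 ± 82.9, 1466 ± 57.0 and 1824 ± 56.5 normalised counts in CD73ko tMCAO, flox tMCAO and flox sham mice (SD, n = 4 each), nearly the same in both operated groups, as for Gad1.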

How the data were processed

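The authors deposited a table of raw nCounter counts for 770 genes and 14 control probes in 12 mice, of which each column is named by its sample. Per the labels' protocols, brains were homogenised in TRIzol; the counting software and any background step are not given in the sources used here. The 13 housekeeping genes and the control probes stayed out of the tests. The authors' 2 normalised tables were not used, because their 11 sample names match no label (44 rows of values).

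Counts were tested with edgeR 4.0.16 (R 4.3.3; quasi-likelihood F test, TMM scaling over 757 endogenous genes, 1 coefficient per group over all 12 mice, Benjamini-Hochberg threshold 0.05 over 757 genes) which gave all adjusted p-values. Standard errors came from the fold change and its F statistic, and intervals from 14.4 degrees of freedom. Labels give each sample as an individual mouse, and mice of a group always differed by more than counting error (chi-square over its degrees of freedom at least 1.73). Log2 profiles used scaled count + 1.

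The 10 genes, the 8 neuronal and 5 other lists and the alternatives were chosen with earlier results of these data known. Besides the 10 genes, those named were up to 3 per neuronal list with the smallest p in flox tMCAO against flox sham mice, the 5 most alike in profile, and defining genes of other cell types; 3 genes that the rule names are not reported here. Alternatives were DESeq2 1.42.0 size factors, housekeeping and median scaling, DESeq2 and limma 3.58.1 as tests, a background filter, only the groups compared and a replicate block, besides leaving out single mice. Scripts were tested on simulated data. Promoter windows came from RefSeq (GRCm38.p6). Probes can bind near-identical paralogues, and signed values are the first-named group over the second.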

Additional observations from a re-analysis of the deposited data

Results flagged for a closer look

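Within the groups of 4 mice, 30 combinations of gene and group were examined for a mouse far from the other 3 (by Dixon's test), and 3 were found; chance gives about 1 in 20. Adrb1 in flox tMCAO replicate 4 was 86.2 normalised counts, below 3 mice that lay between 93.6 and 95.0. Unc80 in flox sham replicate 4, the library of low depth, was 1428 normalised counts, above 3 mice between 1234 and 1261. Cntnap1 in CD73ko tMCAO replicate 3 was 538 normalised counts, below 3 mice between 601 and 609. Without the mouse in question, the log2 fold change of CD73ko against flox tMCAO mice was 0.32 for Adrb1 and -0.04 for Cntnap1, and that of flox tMCAO against sham was -0.19 for Unc80.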

How the results depend on the processing

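Each result was recomputed under 20 alternatives. The 10 genes stayed below sham under every alternative, between -0.53 and -0.08 on the log2 scale in CD73ko tMCAO mice and between -0.69 and -0.19 in flox tMCAO mice. Because they were chosen for being lower in these same counts, this direction follows largely from the choice. The recomputed values of these genes numbered 600. Those against sham were held to the spread between mice, and 1 moved by more. It was Dnm3 in CD73ko tMCAO against sham mice, at -0.40 with housekeeping scaling. Those of CD73ko against flox tMCAO mice were held only to the adjusted p threshold of 0.05, which none crossed, and not to that spread. In CD73ko against flox tMCAO mice 0 genes passed under every alternative, and the lowest adjusted p of any of the 10 was 0.446, for Adrb1 without CD73ko tMCAO replicate 1. Among the 66 other neuronal genes, 13 were called lower in CD73ko tMCAO against sham mice, and 31 with median scaling, 25 with housekeeping scaling, 20 with only genes above background and 9 with the replicate block. The number that fell in flox tMCAO mice was 17, and 28 with median scaling, 10 with only the groups compared, 10 with the replicate block, and 8 to 24 with each mouse left out; of the 10 under the block, all 10 were among the 17. The genes called over the whole panel were 125 to 206 (167 with all mice) in flox tMCAO against sham mice, and 110 to 229 (172 with all mice) in CD73ko tMCAO against sham mice, with each mouse left out; the lowest of the second, 110, was without CD73ko tMCAO replicate 3. The split of higher and lower calls, 107 and 60 in flox tMCAO mice, was 92 and 92 with housekeeping and 97 and 105 with median scaling. In CD73ko tMCAO against sham mice it was 122 and 50, against 117 and 76 with DESeq2 size factors, 101 and 100 with housekeeping and 104 and 118 with median scaling. The cause of these shifts was not tested. The replicate numbers were shared across groups, and the deviations of same-numbered mice correlated between -0.25 and 0.17. Whether the numbers pair the mice cannot be decided from these values, because differently numbered mice were not compared in this way. With the replicate block, the calls over the whole panel were 145 in flox tMCAO against sham mice and 146 in CD73ko tMCAO against sham mice. Between the genotypes the block left 0. Depth limits the low genes most: Adrb1, Chrm3 and Grin2a had 53, 68 and 77 raw counts in flox sham replicate 4.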
